A study of Mus musculus with 2 samples.

Results

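The genes described here are 47 mouse genes whose products license replication origins, unwind DNA and copy it at the fork. They were taken by gene symbol from textbook complexes, with no measured value in the rule, though earlier results of these data were known. All 47 were found among the 43346 Ensembl gene entries of the deposited tables, and they fall into 11 groups by role. RNA came from common myeloid progenitors, dividing bone marrow cells from which red cells, platelet-forming megakaryocytes, granulocytes and monocytes descend. The donors were C57BL/6J males, adults of 5 to 6 weeks, with no genotype change or treatment named in the labels. Total RNA depleted of ribosomal RNA was made into ScriptSeq libraries from 100 ng, as biological replicates 1 and 2 of a single group. Both replicates carry the same donor label, whether cells of several animals were pooled is not given in the sources used here, and the spread between them may be partly technical. With 1 group of 2 libraries there was no contrast between conditions, so no test was made and no p-value is given. In such bulk RNA, fewer cells in S phase and less RNA per cell cannot be told apart.

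The libraries differed in depth, with 28158803 expected counts in replicate 1 and 84041054 in replicate 2, a ratio of 2.98. Their recorded size ranges differed too, at 200 to 1000 in replicate 1 and 187 to 1606 in replicate 2. The part of this difference in the TPM of short models was not tested. A count of 0 allows up to 3 counts, or 0.107 and 0.0357 CPM (counts scaled to the library total). Such limits cover counting error only, because the reads carry no molecular identifiers and several can stem from 1 molecule. The labelled cell type was checked on 9 lists of 5 marker genes each, given here by how many reached 1 TPM (a level corrected for transcript length and scaled to the library total) in both libraries. All 5 progenitor markers did (Cd34, Kit, Flt3, Mpo and Myb), with summed levels of 578 and 691 TPM. The counts were 0 for stem cells, 3 for erythroid maturation, 3 for late neutrophils, 1 for macrophages and 3 for megakaryocytes, with sums between 2.18 and 54.1 TPM. Lists of B cells and of T and NK cells had 0 of 5, with sums between 0.29 and 0.41 TPM, and Cd79a, Pax5, Ebf1, Cd3e, Cd8a and Ncr1 stood at 0 counts in both libraries. Of the stromal and endothelial list 1 of 5 passed, Pecam1 at 8.76 and 12.6 TPM, while Cdh5 and Col1a1 stood at 0. The part of these other cells in the levels below was not tested.

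Replication starts from licensed origins. The origin recognition complex (ORC) marks them, and Cdc6 and Cdt1 load the ring helicase MCM2-7 there before S phase, a step that geminin blocks afterwards by binding Cdt1. Cyclin E with Cdk2, together with the Cdc7 kinase, then triggers assembly of Cdc45 and the GINS complex on the helicase, and polymerases, the sliding clamp and its loader follow. Many of these genes are known targets of the E2F factors, which are held back by the retinoblastoma family of pocket proteins until cells pass into S phase.

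Start regions of some members are shown because a short sequence that the choice of genes did not use was found in a larger share of them than of all start regions. RefSeq windows on GRCm38.p6, from 250 bases before to 50 after a transcription start, were matched by symbol to 38 of the 47 genes. They were searched on both strands for the E2F words TTTCGCGC, TTTGGCGC, TTTCCCGC and TTTGCCGC, whose matches may overlap each other. Of the 38 genes, 15 (39.5%) held at least 1 such word: Orc1, Orc3, Cdc6, Cdt1, Mcm3, Mcm5, Mcm6, Mcm7, Gins3, Pola1, Pold1, Pole2, Rfc3, Lig1 and Cdk2. The words stood in 2.26% of all 32851 windows and in 704 of 27025 genes. Among 7345 genes with a window and at least 1 TPM in both libraries the share was 5.28%. The lines below show the word in capitals within its neighbours, 5′ to 3′ on the strand of the gene, for ORC, loader and helicase genes whose levels are described next. In Orc1 (chr4:108579416-108579445, plus strand) the word begins 27 bases before the start, in Orc3 (chr4:34614965-34614994, minus strand) 41 bases before, in Cdc6 (chr11:98908002-98908031, plus strand) 138 bases before and in Cdt1 (chr8:122568036-122568064, plus strand) 32 bases after it. In Mcm5 (chr8:75109345-75109374, plus strand) it begins 153 bases before, in Mcm7 (chr5:138172030-138172059, minus strand) 165 bases before and in Mcm3 (chr1:20820275-20820304, minus strand) 19 bases after the start. Mcm3, Mcm5 and Mcm7 hold a second word each. In Mcm5 it begins 149 bases before the start, overlaps the word shown and is only partly in capitals. In Mcm3 it begins 38 bases and in Mcm7 16 bases after the start, outside the lines printed here.
Orc1: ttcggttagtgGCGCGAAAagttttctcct
Orc3: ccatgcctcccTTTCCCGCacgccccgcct
Cdc6: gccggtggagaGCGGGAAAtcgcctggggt
Cdt1: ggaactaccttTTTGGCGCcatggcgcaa
Mcm5: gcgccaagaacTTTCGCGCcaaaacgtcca
Mcm7: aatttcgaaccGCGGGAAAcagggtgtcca
Mcm3: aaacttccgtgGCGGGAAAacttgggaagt

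Mcm6, the highest of the helicase genes by mean level, held the most matches. The 250 bases before its start (chr1:128359706-128359955, minus strand) are printed below with E2F words and CCAAT boxes in capitals. There are 3 E2F words, of which a pair overlap in the first long capital run, and 2 CCAAT boxes, read here as ATTGG. The E2F words begin 110, 106 and 47 bases before the start, and 52.4% of the bases are G or C.
Mcm6: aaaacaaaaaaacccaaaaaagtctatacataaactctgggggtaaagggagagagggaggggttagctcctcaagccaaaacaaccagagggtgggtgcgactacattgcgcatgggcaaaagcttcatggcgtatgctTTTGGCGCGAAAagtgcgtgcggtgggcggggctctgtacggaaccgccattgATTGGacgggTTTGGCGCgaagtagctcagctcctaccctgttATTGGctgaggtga

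Windows with a word were found in 4 of 5 helicase genes, in 2 of 2 loaders, in 2 of 6 ORC genes and in 2 of 3 genes of polymerases delta and epsilon. None were found for the 3 RPA genes or the 4 nucleotide supply genes, which says only that these letters are not in those windows. The levels of genes with and without the word overlapped. The 15 genes with it had a median of 19.6 ± 1.81 TPM (SD, n = 2) and ranged from 3.21 TPM for Orc1 to 109.7 TPM for Mcm6. The 23 genes without it had a median of 18.5 ± 2.31 TPM and ranged up to 137 TPM for Pcna. CCAAT boxes, bound by the factor NF-Y, were in 24 of the 38 genes (63.2%) against 43.6% of expressed genes.

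All 47 genes were transcribed, and 45 stood above the median of expressed protein-coding genes. Of the 47, 47 reached 1 TPM in both libraries, which 42.5% of 21461 protein-coding genes did. At 10 TPM in both there were 37 of 47, against 15.0% of protein-coding genes. The median gene stood at 18.3 TPM in replicate 1 and 20.8 TPM in replicate 2 (19.6 ± 1.81, SD, n = 2). Over the 9116 protein-coding genes that reached 1 TPM in both, the median was 7.24 ± 0.75 TPM. The genes summed to 1216 and 1384 TPM, which was 0.605% and 0.643% of protein-coding TPM. Among the 9116 genes the median member stood at percentile 80.8, with 10 members above percentile 90. Orc1 (percentile 21.6) and Gins3 (30.1) were the 2 members below the median of that set. Levels ran from Orc1 at 3.21 ± 0.24 TPM to Pcna at 137 ± 9.28 TPM, and the plot of TPM by complex shows each gene in both libraries.

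**Figure D1:**
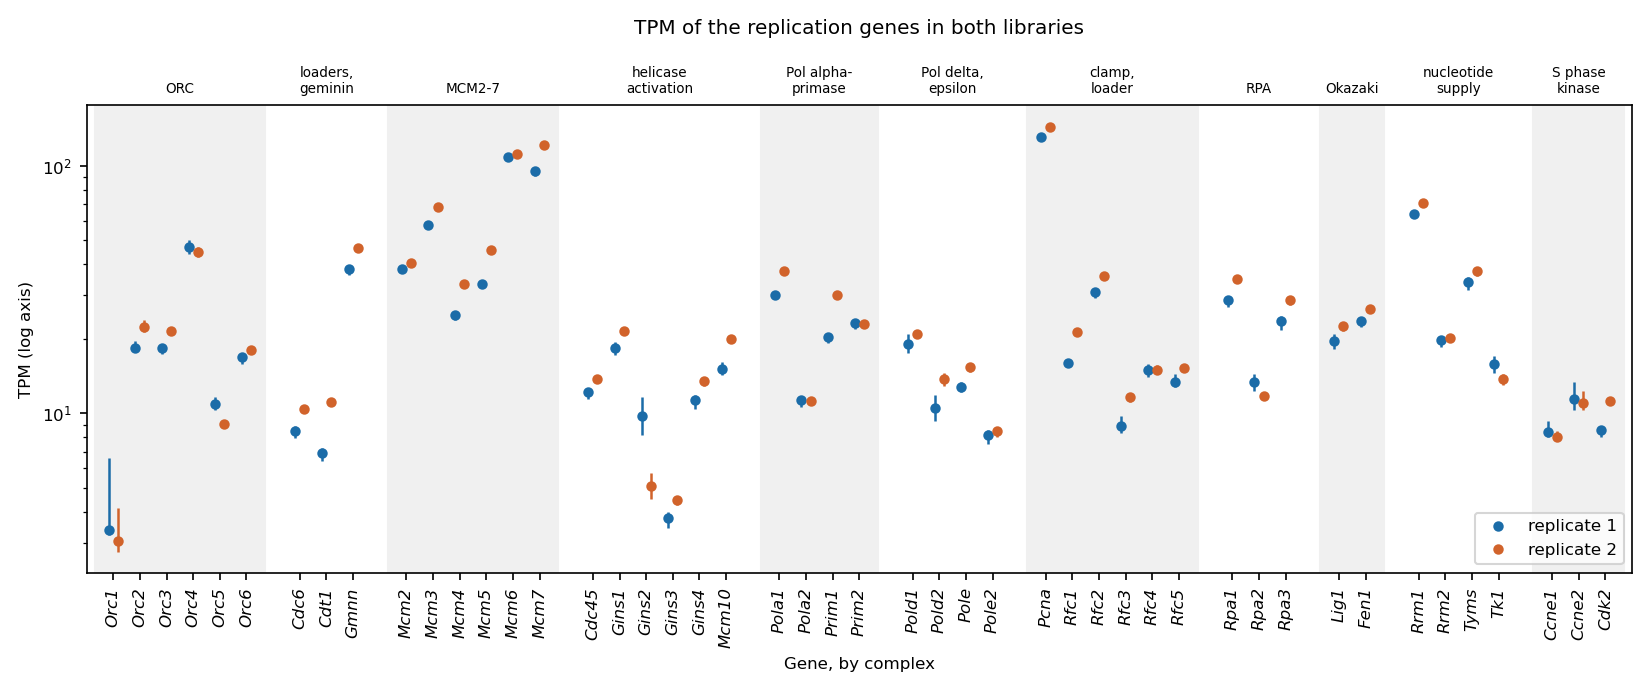
TPM (log axis) of each of the 47 genes by complex, with replicate 1 in blue and replicate 2 in orange; vertical lines are the TPM bounds deposited by the authors, whose level is not stated. Pcna, Mcm6 and Mcm7 lie at the top, up to 143.5 TPM, and Orc1 and Gins3 lie lowest, at 3.04 to 4.48 TPM.

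The origin recognition complex was expressed unevenly. Its 6 genes had medians of 17.6 and 19.8 TPM in replicates 1 and 2. Orc1, the gene of an ATPase subunit, stood at 3.38 and 3.04 TPM, the lowest TPM of all 47 genes in both libraries. In replicate 1 its order with Gins3 turned by posterior mean TPM (4.5 for Orc1 against 3.71 for Gins3) and by CPM (23.2 against 22.4), and their deposited TPM bounds overlapped. Orc1 had 654 and 1387 expected counts, so depth did not limit its detection. Orc2 stood at 18.3 and 22.2 TPM, Orc3 at 18.3 and 21.5 TPM and Orc6 at 16.9 and 17.98 TPM, a tight band of subunits. Orc5 was lower, at 10.9 and 9.08 TPM. Orc4 seemed the highest at 47.2 and 44.9 TPM, 13.96 and 14.8 times Orc1, but models annotated protein-coding held only 10.4 and 16.1 TPM of that. Of the latter values 7.64 and 8.11 TPM came from models of at least 1000 nt, and a 383 nt model with 2.67% of the counts gave 6.19 TPM in replicate 2. Orc1 (ENSMUSG00000028587.14) lies on chromosome 4 from 108579423 to 108614833, plus strand, and Orc4 (ENSMUSG00000026761.8) on chromosome 2 from 48902824 to 48950277, minus strand.

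Of the helicase loading factors, the inhibitor stood above the loaders in TPM. Gmnn, the gene of geminin, stood at 38.3 and 46.6 TPM. Cdt1, which it binds, stood at 6.93 and 11.1 TPM, below Gmnn in both libraries. The ratio of Gmnn to Cdt1 was 5.52 and 4.19 in TPM. It was 2.09 and 1.61 in CPM, which is not corrected for the shorter Gmnn transcript. Cdc6, the ATPase that brings Cdt1 to ORC, stood at 8.51 and 10.4 TPM, also below Gmnn. In CPM the order turned, with Cdc6 at 87.5 and 91.2 and Gmnn at 77.4 and 82.3. Cdc6 and Cdt1 changed order between libraries, with ratios of Cdc6 to Cdt1 of 1.23 and 0.938. Gmnn (ENSMUSG00000006715.7) lies on chromosome 13 from 24751845 to 24761923, minus strand, and Cdt1 (ENSMUSG00000006585.2) on chromosome 8 from 122568015 to 122573554, plus strand.

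The 6 genes of the MCM2-7 helicase had the highest median of the 11 groups, 48.01 and 56.8 TPM. Their products form 1 ring with a single copy of each subunit, yet the RNA levels were unequal. Mcm6 stood at 108.1 and 111 TPM and Mcm7 at 95.01 and 121 TPM, so this pair changed order in TPM, but in CPM Mcm6 was higher in both libraries (789 and 698 against 464 and 446). A protein-coding model of 795 nt held 27.5% and 40.3% of Mcm7 TPM with 8.83% and 15.0% of its counts. Protein-coding models of at least 1000 nt gave Mcm7 55.9 and 56.2 TPM, near the level of Mcm3. Mcm3 stood at 57.8 and 67.95 TPM. Mcm2 stood at 38.2 and 40.3 TPM, Mcm5 at 33.3 and 45.6 TPM and Mcm4 at 24.9 and 33.4 TPM. Mcm4 was the lowest in both libraries, and Mcm6 held 4.34 and 3.33 times its TPM. Over protein-coding models alone the ratio was 4.31 and 3.22. Mcm2, Mcm4 and Mcm5 have a single model each. Mcm6 (ENSMUSG00000026355.7) lies on chromosome 1 from 128331590 to 128359664 and Mcm7 (ENSMUSG00000029730.12) on chromosome 5 from 138164583 to 138172422, both on the minus strand. Mcm4 (ENSMUSG00000022673.4) lies on chromosome 16 from 15623897 to 15637400, also on the minus strand.

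Genes that turn the loaded ring into an active helicase stood lower, with medians of 11.7 and 13.6 TPM. Cdc45, a subunit of the active helicase, stood at 12.1 and 13.8 TPM, and Mcm2 exceeded it 3.15 and 2.93 times. Mcm10, needed for origin firing, stood at 15.1 and 20.0 TPM, and at 11.1 and 11.5 TPM on protein-coding models. Of the 4 GINS genes, whose products form 1 complex of equal parts, Gins1 was the highest at 18.4 and 21.4 TPM. Gins4 stood at 11.3 and 13.4 TPM. Gins3 stood at 3.77 and 4.48 TPM, and Gins1 held 4.87 and 4.78 times its TPM, an order that both libraries shared. In CPM, which does not correct for the longer Gins3 transcript, the ratio was 1.93 and 1.90. Gins2 stood at 9.79 and 5.08 TPM, the largest fold between libraries in TPM among the 47 genes. On protein-coding models Gins2 stood at 3.08 and 3.47 TPM, below Gins3 in both libraries.

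Polymerase alpha with primase lays down the RNA-DNA primers. Its catalytic gene Pola1 stood at 30.03 and 37.7 TPM and its partner Pola2 at 11.3 and 11.2 TPM, a ratio of 2.66 and 3.36. The primase genes lay between them. Prim1, the catalytic subunit, stood at 20.4 and 30.2 TPM and Prim2, the large subunit, at 23.2 and 22.9 TPM. Their order was not the same in the libraries, with Prim2 to Prim1 at 1.13 and 0.759. Pola1 is the only member on chromosome X (93304767 to 93632155, minus strand), present in a single copy in these males.

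The replicative polymerases had medians of 11.6 and 14.5 TPM. Pold1, the catalytic subunit of the lagging strand polymerase delta, stood at 19.1 and 20.8 TPM and Pold2 at 10.5 and 13.7 TPM. Pole, that of the leading strand polymerase epsilon, stood at 12.8 and 15.4 TPM and Pole2 at 8.19 and 8.45 TPM. On gene totals Pold1 stood above Pold2 and Pole above Pole2 in both libraries. The other subunits, listed with the other replication genes and not in this group, did not all stand lower. Pold3, at 29.2 and 21.7 TPM, was above Pold1 in both libraries, and Pold4, at 12.04 and 13.02 TPM, was below it. Pole3, at 17.5 and 21.6 TPM, was above Pole in both libraries. Pole4, at 12.96 and 12.75 TPM, changed order with Pole between them. On protein-coding models Pold1 stood at 10.2 and 13.7 TPM and Pole at 7.52 and 10.4 TPM, so that Pole to Pole2 was 0.918 and 1.23 and Pold1 to Pold2 was 1.23 and 1.13.

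Pcna, the sliding clamp, was the highest of all 47 genes in both libraries, at 130.4 and 143.5 TPM. It exceeded Mcm6 1.21 and 1.29 times in TPM, and 1.08 and 1.16 times on protein-coding models. In CPM, which is not corrected for the longer Mcm6 transcript, the ratio of Pcna to Mcm6 was 0.548 and 0.586. The clamp loader genes were far lower in TPM. Rfc2 was the highest of them at 30.8 and 35.9 TPM, followed by Rfc1, the large subunit, at 15.99 and 21.3 TPM. Rfc4 stood at 14.95 and 14.9 TPM and Rfc5 at 13.4 and 15.3 TPM, while Rfc3 was the lowest at 8.88 and 11.6 TPM. Pcna (ENSMUSG00000027342.10) lies on chromosome 2 from 132249162 to 132253314, minus strand. Its processed pseudogene Pcna-ps2 had 759 and 2456 expected counts and the other, Pcna-ps1, had 0. The Pcna count was not a whole number, so reads were divided between entries, and its level is uncertain to that extent.

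Replication protein A coats single-stranded DNA as a trimer of 3 different subunits. Rpa1, the large subunit, stood at 28.8 and 35.0 TPM, Rpa3, the smallest, at 23.5 and 28.6 TPM and Rpa2 at 13.3 and 11.8 TPM. Rpa2 was the lowest in both libraries. The genes that join Okazaki fragments stood close together, with the flap endonuclease gene Fen1 at 23.5 and 26.3 TPM and the ligase gene Lig1 at 19.6 and 22.6 TPM.

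Among enzymes that supply deoxynucleotides, Rrm1, the large subunit of ribonucleotide reductase, stood at 63.7 and 70.9 TPM. Rrm2, the small subunit, which in most cells is made in S phase, stood at 19.7 and 20.2 TPM. Rrm1 held 3.23 and 3.51 times the TPM of Rrm2, and 3.93 and 3.62 times on protein-coding models. Tk1, thymidine kinase of the salvage route, stood at 15.8 and 13.7 TPM on gene totals and at 8.92 and 9.59 TPM on protein-coding models. Tyms, thymidylate synthase, stood at 33.9 and 37.5 TPM on gene totals, but at 3.85 and 3.23 TPM on protein-coding models.

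Genes of the kinase that starts S phase stood among the lower members, with medians of 8.54 and 10.98 TPM. Ccne1 and Ccne2, the cyclin E genes, stood at 8.37 and 8.04 TPM and at 11.4 and 10.98 TPM. Their kinase partner Cdk2 stood at 8.54 and 11.2 TPM. Ccne2 held 1.36 and 1.37 times the TPM of Ccne1, but 1.15 and 0.965 times on protein-coding models, so which cyclin E gene was higher depended on the models counted.

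Levels of some genes depended on which transcript models were counted. TPM divides reads by model length, so that a short model raises the TPM of its gene. The 47 genes had 228 models, between 1 and 13 a gene. In both libraries 24 genes had at least 90% of their TPM in protein-coding models, a count without a share over all genes. The median share was 96.2% and 93.03%, against 100% and 99.3% over protein-coding genes with at least 100 counts in both. Of Orc4, a processed transcript of 424 nt held 56.6% and 39.1% of TPM with only 12.9% and 9.25% of the counts. Of Tyms, a model of 797 nt marked for nonsense-mediated decay held 58.2% and 63.3% of TPM, and a retained intron of 816 nt held 24.9% and 21.8%. Unlike the short Orc4 model, this decay model also led by counts, with 34.5% and 40.4%. The protein-coding model of Tyms held 34.1% and 27.2% of the counts. Protein-coding models held 22.04% and 35.9% of TPM for Orc4 and 11.4% and 8.60% for Tyms. Their rank by mean level moved from 6 to 24 for Orc4 and from 10 to 45 for Tyms once only protein-coding models were counted.

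Gins2 shows the effect between libraries. A processed transcript of 473 nt had 126 counts and 6.39 TPM in replicate 1 but 3.75 counts and 0.07 TPM in replicate 2. The protein-coding model of 3900 nt stood at 3.08 and 3.47 TPM. On counts of all models the log2 ratio of replicate 2 over replicate 1 was -0.20. Of Rfc1, the leading model (4751 nt, with 55.97% and 63.7% of TPM) had no match in the annotation used for classes, so its protein-coding value of 6.63 and 5.34 TPM leaves that model out. In Orc4, Tyms and Rfc1, 3 of 47, the leading model was not annotated protein-coding in either library, against 6.02% of 9860 protein-coding genes, a like share. The leading model differed between libraries in 4 of 38 genes with several models (Orc3, Orc6, Gins2 and Fen1), against 24.0% of 7347 genes. In Orc3, Orc6 and Fen1 the models that changed places are protein-coding. The 1523 nt model of Orc6 went from 72.0% of the gene's TPM to 49.4%, and the 2266 nt model of Orc3 from 42.7% to 19.1%. In Fen1 the leading pair was close, at 8.01 TPM for a model of 2100 nt and 8 TPM for another of 2152 nt in replicate 1, with 9.56 and 10.7 TPM in replicate 2.

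**Figure D2:**
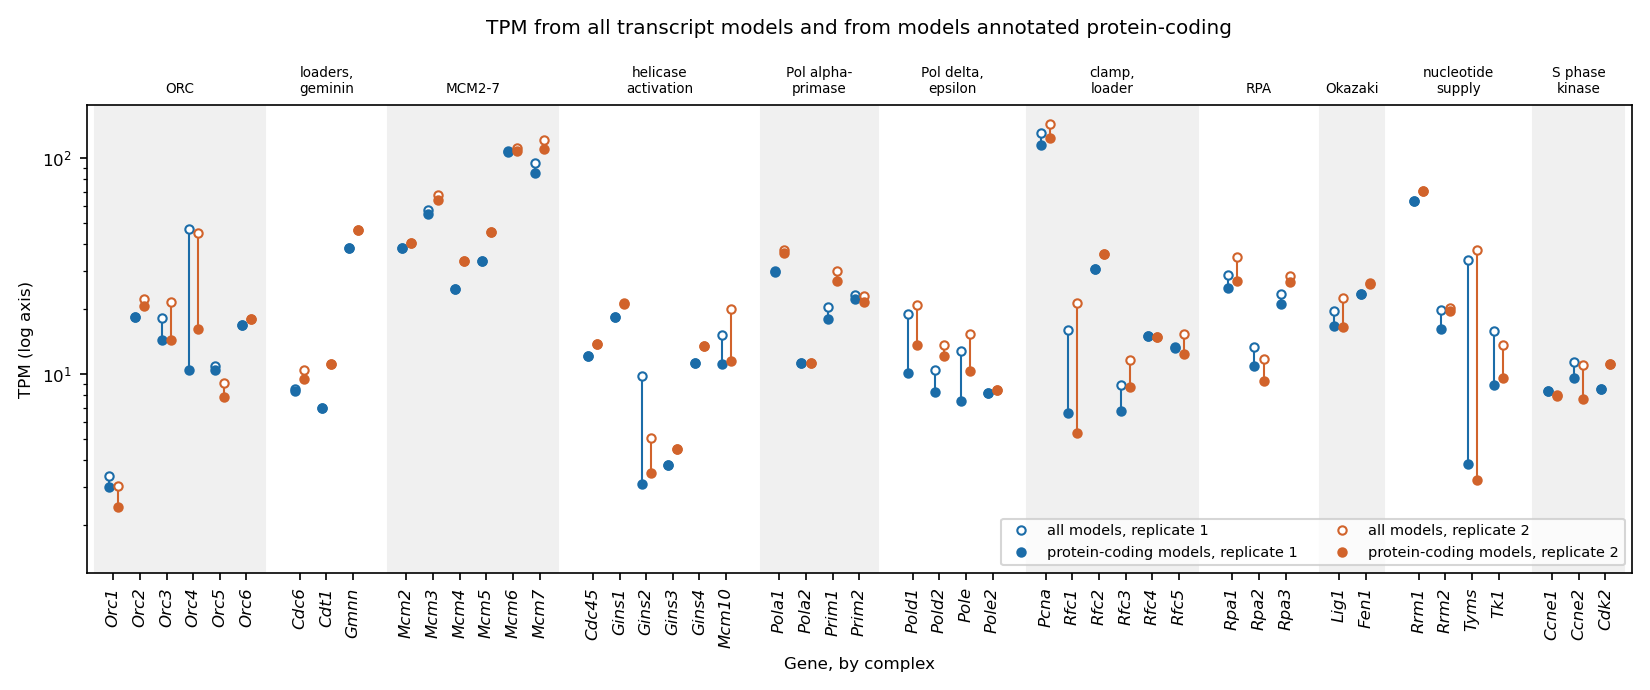
TPM (log axis) of each gene from all transcript models (open circles) and from models annotated protein-coding (filled circles), replicate 1 in blue and replicate 2 in orange, joined by a line. Long lines mark Orc4, Tyms and Rfc1 in both libraries and Gins2 in replicate 1, where the open circle is at 9.79 TPM and the filled circle at 3.08 TPM.

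Between the libraries the 47 genes held their levels closely. No member was 2-fold apart in CPM scaled by edgeR's TMM factors, with 0 of 47 higher and 0 of 47 lower in replicate 2. Of 12704 genes with a mean count of at least 50, 6.75% were at least 2-fold higher and 3.69% at least 2-fold lower in replicate 2. Of these, 9112 were protein-coding genes at 1 TPM in both, with only 61 higher and 70 lower by that much. Beside that set, a count of 0 does not set the members apart. Well-counted genes in general differed less: for the 3212 protein-coding genes at 10 TPM in both, the 5th and 95th percentile of the log2 ratio were -0.44 and 0.30. The members' median log2 ratio was -0.06, from -0.51 for Ccne2 to 0.47 for Cdt1. That of the 3212 genes was -0.05 and that of all 12704 genes was 0.02. Ccne2 had 71.4 and 50.1 CPM, Orc1 23.2 and 16.5 CPM, and Cdt1 36.99 and 51.3 CPM. Prim1 (81.4 and 101.2 CPM) and Pold2 (33.6 and 41.7 CPM) were the next highest in replicate 2, with log2 ratios of 0.31 each.

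By group, all 6 ORC genes and all 4 nucleotide supply genes were below 0 in this ratio, while on the ratio of TPM Orc2, Orc3, Orc6, Rrm1, Rrm2 and Tyms were above 0. All 3 loader and geminin genes were above 0 on both scales. In CPM, 19 members were higher and 28 lower in replicate 2. Of 9112 protein-coding genes at 1 TPM in both that passed the count filter, 4521 were higher and 4591 lower in CPM. In TPM 36 members were higher and 11 lower, with no such count for other genes. No background is given for the signs within a group. TPM ratios of all 12704 genes were shifted as well, with a median of 0.22, beside 0.20 for the members. Deposited TPM bounds of the libraries did not overlap for 36 of 47 genes (76.6%), against 66.6% of the 9116 expressed protein-coding genes. Those bounds describe the estimate within a library, and their level is not stated.

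**Figure D3:**
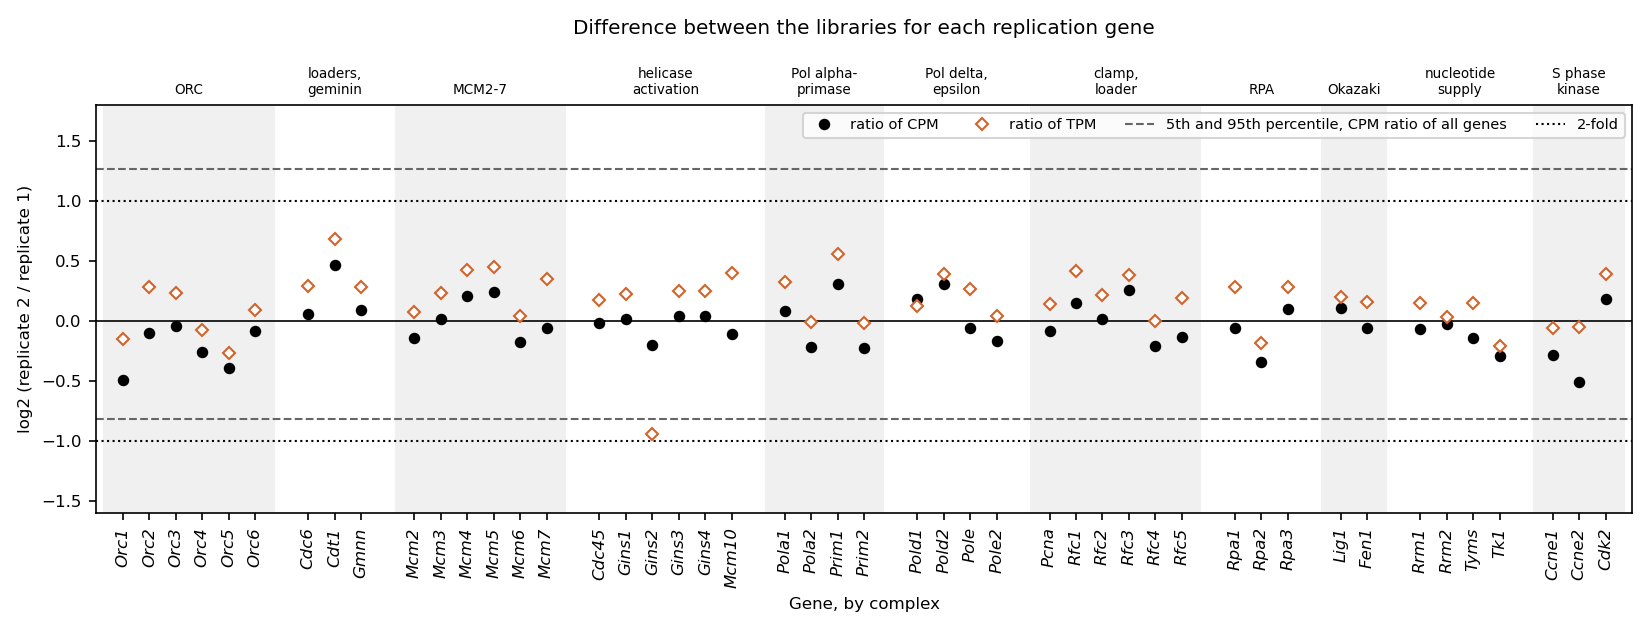
Log2 ratio of replicate 2 over replicate 1 for each gene, from CPM (filled circles) and TPM (open diamonds), with lines at 2-fold (dotted) and at the 5th and 95th percentile of the CPM ratio of all genes (dashed). All CPM ratios lie between -0.51 (Ccne2) and 0.47 (Cdt1), within both pairs of lines, and the TPM ratio of Gins2 lies below the lower dashed line.

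Neighbouring genes share positions with several members. On the annotation, 16 members share exon bases with a gene on the opposite strand, and whether the authors' counting used strand is not given in the sources used here. The share over all genes is not given, so whether such overlap is particular to the members was not tested. Gins2 shares 2758 exon bases with Gse1 (2727 and 9252 counts), Fen1 shares 1909 with the antisense gene Gm10143 (139 and 556 counts), Orc2 shares 1150 with Nif3l1 (1409 and 3639 counts) and Rfc2 shares 952 with Lat2 (1036 and 2631 counts). Rfc4 shares 194 with Eif4a2, which had 15310 and 44737 counts. On the same strand, Mcm7 holds the microRNA genes Mir25 and Mir93, both at 0 counts, and Orc5 overlaps the pseudogene Gm15421 by 90 bases. Expected counts were whole numbers (within 0.005) for 43 members and not for Cdc6, Pcna, Rfc5 and Tk1, with no share over all genes beside it.

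Other genes of the pathway stood at similar or lower levels. The 40 other replication genes, such as kinases, fork protection and chromatin assembly factors, all reached 1 TPM in both libraries, and 26 reached 10 TPM. Their median was 13.6 ± 1.01 TPM. Top2a, which untangles daughter strands, led at 130 and 144 TPM, a level like that of Pcna. Ssrp1 (90.3 and 108.7 TPM) and Supt16 (57.8 and 57.3 TPM), the pair that forms the histone chaperone FACT, Tipin (59.1 and 63.4 TPM) of the fork protection complex and Dut (51.4 and 58.4 TPM), the dUTPase, followed. The lowest were Mcm9 (2.49 and 2.96 TPM), a relative of the MCM2-7 genes, the helicase gene Recql4 (2.41 and 2.69 TPM) and Rrm2b (1.42 and 2.85 TPM), the alternative small subunit of ribonucleotide reductase. Rrm2b lay well below Rrm2 in both libraries. None of the 40 was 2-fold apart in CPM.

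The 18 mitosis genes had a median of 20.6 ± 1.15 TPM, close to that of the 47 members, and 17 reached 10 TPM in both. Mki67 led at 82.4 and 97.6 TPM, then Cdk1 (48.7 and 47.9 TPM), Birc5 (40.2 and 42.7 TPM), Kif11 (40.3 and 39.97 TPM) and Ccnb1 (31.8 and 36.96 TPM). On protein-coding models Cdk1 stood at 19.7 and 18.5 TPM, below Birc5, Kif11 and Ccnb1. The lowest was Plk1, at 6.44 and 10.4 TPM, below Ttk (11.5 and 12.3 TPM) and Bub1 (11 and 13.4 TPM). The regulators that are known to act on these promoters were lower. Of 13 E2F and pocket protein genes, 10 reached 1 TPM and 5 reached 10 TPM in both, with a median of 8.33 ± 2.06 TPM. Tfdp1, the E2F partner, led at 33.1 and 40.6 TPM, and the pocket protein genes Rbl1 and Rbl2 stood at 18.1 and 20.5 TPM and at 13.8 and 16.2 TPM. On protein-coding models the latter pair stood at 11.4 and 13.2 TPM and at 7.08 and 8.88 TPM. Tfdp2 stood at 13.6 and 13.8 TPM and E2f4, a repressive family member, at 10.99 and 14.3 TPM. The lowest were E2f7 (0.77 and 3.11 TPM), E2f5 (0.86 and 1.75 TPM) and E2f2 (0.9 and 1.5 TPM). E2f7, a repressor, was the only gene of the 3 lists past 2-fold, with a log2 ratio of 1.12 in CPM, and on protein-coding models it stood at 0.48 and 1.29 TPM.

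**Figure D4:**
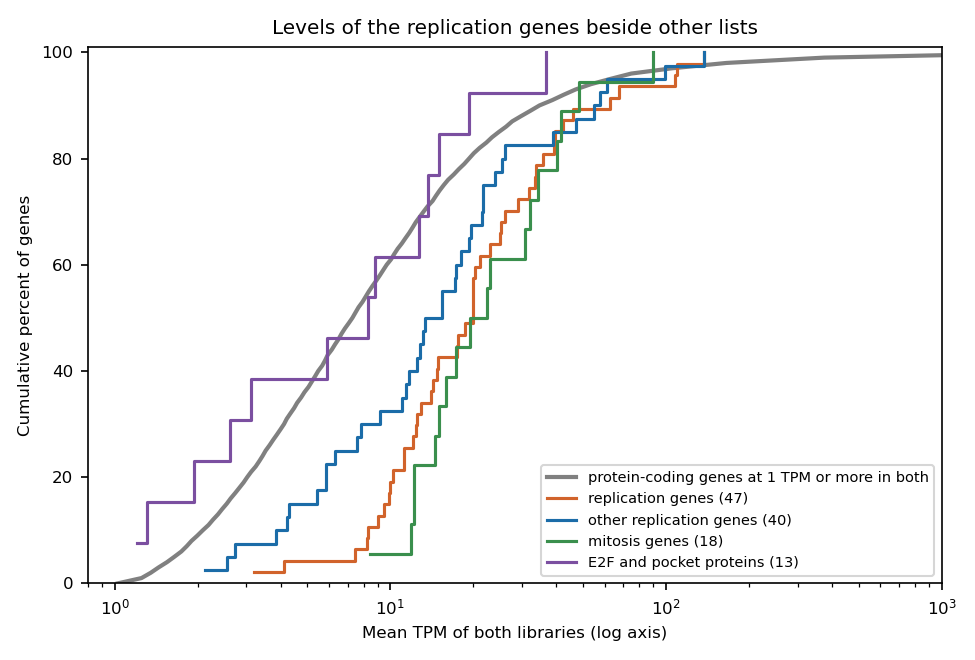
Cumulative percent of genes by mean TPM of both libraries (log axis) for the 47 replication genes (orange), 40 other replication genes (blue), 18 mitosis genes (green), 13 E2F and pocket protein genes (purple) and all protein-coding genes at 1 TPM or more in both (grey, drawn to 1000 TPM). The curves cross 50% at 19.6 TPM for the members, 13.6 TPM for other replication genes, 20.6 TPM for mitosis genes, 8.33 TPM for E2F and pocket proteins and 7.24 TPM for the grey curve.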

How the data were processed

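Total RNA was sequenced in 2 libraries of common myeloid progenitors. Per the readme of each library, the authors deposited gene and transcript tables on mm10 with GENCODE M4. No source used here names the aligner or quantifier. The deposited expected counts are estimates of reads per gene or transcript and can be fractional. Deposited TPM and posterior mean TPM are the authors' length-corrected levels, relative to all entries, so short structural RNAs take part. Protein-coding genes held 20.1% and 21.5% of TPM. The deposited TPM bounds were used as a signal range only.

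GENCODE M21 on GRCm38 gave gene names, classes and positions, matched by Ensembl ID for 42462 of 43346 gene entries. Expected counts were rounded and scaled with TMM (edgeR 4.0.16, R 4.3.3), and DESeq2 1.42.0 size factors were the alternative. Log2 CPM ratios used a prior count of 0.5 and genes with a mean count of at least 50. Spread is the SD of both libraries. A list's level is the median TPM of its genes in each library. Leading models were read for genes with at least 100 counts in both libraries. Protein-coding TPM sums M21 protein-coding models. Other steps used Python 3.11.15 with pandas 2.3.3 and numpy 2.4.6.

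The members, 3 pathway lists and 9 marker lists were chosen with earlier results of these data known, so their levels are descriptions. Every member and marker could be named. Of pathway lists the 5 highest, the 3 lowest and any gene 2-fold apart could be named, with genes overlapping or copying a member. The other subunits of polymerases delta and epsilon (Pold3, Pold4, Pole3 and Pole4) were named as well. Alternatives were other scalings, no count filter, a prior count of 5, posterior mean values, single libraries and, added after seeing the data, protein-coding models and shares of counts. Sequences are RefSeq windows on GRCm38.p6.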

Additional observations from a re-analysis of the deposited data

How the results depend on the processing

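No paired analysis was possible because there was 1 group. Without 1 library the median level of the members was 18.3 to 20.8 TPM, 38 to 41 reached 10 TPM, 47 reached 1 TPM (47 to 47), and the median share of the leading transcript was 85.5% to 86.8%. Among the 47 genes, 0 were 2-fold apart under DESeq2 size factors, no count filter, a prior count of 5, posterior mean counts or TPM. The median log2 ratio kept its sign except as a ratio of TPM, at 0.20. The leading transcript's median share was 86.1%, but 83.8% by posterior mean TPM and 93.6% by expected counts. On protein-coding models 30 members reached 10 TPM and the median level was 13.8 TPM. The matching values over all protein-coding genes are not given here, so these have no background on this measure. Group medians that moved by over 1 SD were 13.9 TPM for ORC, 9.73 TPM for polymerases delta and epsilon and 13.9 TPM for clamp and loader (without the leading model of Rfc1). Those of Okazaki processing, at 20.8 TPM, and nucleotide supply, at 13.6 TPM, moved as far. The ratio of the highest to the lowest gene within a group moved most. On protein-coding models it was 7.31 for ORC, 6.03 for helicase activation, 1.48 for polymerases delta and epsilon, 20.4 for clamp and loader (where Rfc1 was lowest because its leading model, unmatched in M21, is left out), 1.50 for Okazaki processing, 19.2 for nucleotide supply and 1.30 for the S phase kinase. In CPM, which is not corrected for length, it was 8.24 for ORC, 2.07 for loaders, 3.07 for MCM2-7, 5.01 for helicase activation, 6.89 for polymerase alpha, 5.20 for polymerases delta and epsilon, 6.58 for RPA, 17.6 for nucleotide supply and 1.72 for the kinase. By posterior mean TPM it was 11.8 for ORC. Depth limits no member, since the lowest count was 631.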

Other observations

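Further words in the start windows of the 38 genes gave the following shares. The CHR word TTTGAA, found in promoters of genes active in G2 and mitosis, was in 5 genes (13.2%: Mcm2, Cdc45, Gins3, Pold2 and Fen1) against 14.8% of expressed genes. TATAAA was in 3 genes (7.89%) against 7.75%, and the GC box GGGCGG in 29 genes (76.3%) against 70.4%. The word TGACGTCA was in 2 genes (5.26%) against 3.87%, and the E box CACGTG in 7 genes (18.4%) against 12.4%. On protein-coding models the genes with an E2F word had a median of 11.9 ± 2.49 TPM and those without had 14.0 ± 1.22 TPM (SD, n = 2).

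Across the 47 genes TPM of the libraries had a Spearman correlation of 0.979, and across all protein-coding genes at 1 TPM in both it was 0.958. Genes are not independent replicates, and the genes share both libraries, so these are descriptions. Gene TPM and protein-coding model TPM of the 47 genes had a Spearman correlation of 0.855.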
